A study of Mus musculus with 13 samples.

Results

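Olfactory receptor RNA was measurable but sparse in the mouse olfactory bulb. The deposited table held 1110 rows whose symbol is Olfr followed by a number, among 34745 rows in all. The 25 receptors described here are the rows whose read counts summed to at least 30 over the 13 libraries. A further 603 receptor rows had 1 to 29 counts, and 482 had none, which over the 223 M counts of the series allows at most 0.0134 CPM (counts in every 1000000 counts) each, for counting error only. Members were thus chosen by their summed count, so their levels are given as a description. Olfr597 (30 counts), Olfr1507 (31) and Olfr131 (32) lay just inside the threshold, and Olfr640 (29), Olfr1496 (27) and Olfr920 (26) just outside it.

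The libraries came from olfactory bulbs of wild type C57BL/6 mice aged 7 to 8 weeks, some of which had been given fine particulate matter (PM2.5). Set 1 held 4 untreated control libraries and 3 libraries labelled with PM2.5 at 3 mg/kg/3 day. Set 2 held 3 untreated control libraries and 3 labelled with PM2.5 at 10 mg/kg/3 day. The 3 mg/kg dose is therefore compared with the controls of set 1 and the 10 mg/kg dose with those of set 2. The sources used here do not give the route, the meaning of the dosing interval, what distinguishes the sets, or whether a library came from 1 mouse or several. The p-values measure only the spread between these samples.

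The series is labelled male, but the sets differed in sex-linked RNA. Xist, which coats the silenced X chromosome, had 2280 to 2784 CPM in the controls of set 1 and 0.111 to 0.551 CPM in those of set 2. The Y-linked gene Kdm5d had no count in any library of set 1 and 55.6 to 78.1 CPM in the libraries of set 2. Library totals ran from 13.03 to 26.99 M counts and were larger in set 2. Set, sex-linked RNA and depth cannot be told apart in any comparison between the sets. Defining RNAs of the bulb were present in every library, among them Gad1 of interneurons and Tbx21 of mitral and tufted cells.

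Olfactory receptors are G protein-coupled receptors with which sensory neurons of the nasal epithelium detect odorants. Each mature neuron expresses one allele of one receptor gene, and axons of neurons with the same receptor converge on a few glomeruli of the bulb. Receptor mRNA is also carried along these axons, so receptor reads in bulb tissue can come from axon terminals, from epithelium taken along in dissection or from cells of the bulb. In bulk tissue, fewer cells or axons and less RNA in each cannot be told apart.

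Olfr111 and its neighbour Olfr110 on chromosome 17 were the receptors with the highest levels per base of the length that the deposited values imply. Their coding sequences are 98.1% identical, with 18 of 951 bases different, and 57.4% of the 50-base windows of each are also found in the other. The stretch of 90 bases from base 787 to base 876, counted from the start codon, holds the most differences of any stretch of that length and is shown because so few positions tell the transcripts apart. Capitals mark the 7 differing bases, in coding sequence of GENCODE M21 (mm10).
Olfr111: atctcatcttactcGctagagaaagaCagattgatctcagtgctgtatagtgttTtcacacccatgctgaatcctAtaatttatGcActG
Olfr110: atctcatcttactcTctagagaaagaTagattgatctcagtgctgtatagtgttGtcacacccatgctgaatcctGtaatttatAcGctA
No source used here says how the authors' counting divided reads between the pair. Their separate values are therefore uncertain, and the sum of both is given beside them.

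Olfr111 (ENSMUSG00000090675, mm10 chromosome 17, 37529957 to 37530997, plus strand) held 1049 of the 3511 member counts. Its level as FPKM, a count scaled by transcript length and library total, was 6.71, 7.99, 6.68 and 6.85 in the controls of set 1 and 6.75, 6.83 and 6.73 at 3 mg/kg. It was 3.93, 2.21 and 3.29 in the controls of set 2 and 2.58, 2.04 and 2.22 at 10 mg/kg. Every library of set 2 lay below every library of set 1, and the dose groups overlapped their own controls. The share of all genes that separate the sets in this way is not given here. Differences between the sets were common: in the edgeR test described below, 8.74% of all genes passed as lower in the controls of set 2 and 10.5% as higher. Olfr110 (ENSMUSG00000090894, chromosome 17, 37492468 to 37499674, plus strand) had an FPKM of 2.78, 1.35, 0.962 and 2.24 in the controls of set 1 and of 1.79, 1.45 and 1.86 at 3 mg/kg. In set 2 it had 1.35, 1.34 and 0.941 in controls and 0.618, 0.805 and 1.03 at 10 mg/kg. Its groups overlapped in each comparison.

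Olfr287 (ENSMUSG00000090129, chromosome 15, 98206971 to 98221056, minus strand) was next in counts, with 858. The length that its deposited values imply was 7320 bases. Its FPKM was 0.451, 0.592, 0.436 and 0.626 in the controls of set 1 and 0.559, 0.486 and 0.535 at 3 mg/kg. In set 2 it was 0.364, 0.618 and 0.510 in controls and 0.534, 0.513 and 0.524 at 10 mg/kg. Unlike Olfr111, Olfr287 had a like level in both sets: the ratio of the mean CPM in set 2 to that in set 1 was 0.970 for Olfr287 and 0.391 for Olfr111. Its neighbour Olfr288, with 97.4% identical coding sequence, had 38 counts against its 858. The 250 bases before the RefSeq start of each gene (GRCm38.p6) were compared because the neighbours differ so much in counts. They share an aligned stretch of 188 bases that is 94.1% identical, at chr15:98221057-98221244 for Olfr287 and chr15:98195605-98195792 for Olfr288, where it ends 62 bases before the start. Capitals mark the 11 differing bases, on the minus strand.
Olfr287: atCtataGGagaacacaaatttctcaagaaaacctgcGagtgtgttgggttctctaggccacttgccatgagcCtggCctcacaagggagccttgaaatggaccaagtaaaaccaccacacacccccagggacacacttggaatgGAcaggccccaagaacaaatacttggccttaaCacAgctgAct
Olfr288: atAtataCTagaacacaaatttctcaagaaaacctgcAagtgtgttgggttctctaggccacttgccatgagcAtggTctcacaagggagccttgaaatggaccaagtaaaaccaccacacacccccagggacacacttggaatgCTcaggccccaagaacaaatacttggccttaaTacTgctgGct
Both genes overlap the annotated gene Gm44579 on the same strand, which had 25 counts over the series. It shares 68.8% of the 50-base coding windows of Olfr287 and 100% of those of Olfr288, so a low count of Olfr288 is uncertain. Of the windows of Olfr287, 70.8% occur in at least 1 other gene, so its values in both sets are uncertain too.

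A group of 4 members of one receptor family by the names in RefSeq lies on chromosome 2: Olfr32, Olfr1270, Olfr1271 and Olfr142. Olfr32 (90138211 to 90139137, minus strand) had an FPKM of 1.08, 1.46, 0.842 and 0.863 in the controls of set 1, 0.588, 1.20 and 0.741 at 3 mg/kg, 0.280, 0.799 and 0.132 in the controls of set 2, and 0.369, 0.960 and 1.01 at 10 mg/kg. The controls of set 2 lay below those of set 1, again without a share over all genes to set beside it, while each dose group overlapped its controls. Olfr1271 had 0.167, 0.310, 0.541 and 0.238 FPKM in the controls of set 1, 0.594, 0.228 and 0.449 at 3 mg/kg, 0.0708, 0.283 and 0.0667 in the controls of set 2, and 0.106, 0.0539 and 0.256 at 10 mg/kg. Olfr142 had 0.418, 0, 0.541 and 0.317 FPKM in the controls of set 1, 0.371, 0.304 and 0.897 at 3 mg/kg, 0, 0 and 0.0667 in the controls of set 2, and 0.106, 0.108 and 0.0853 at 10 mg/kg. Olfr1270 had 0.168, 0.466, 0.155 and 0.715 FPKM in the controls of set 1, 0.224, 0.381 and 0.450 at 3 mg/kg, 0.0711, 0 and 0.268 in the controls of set 2, and 0, 0.0540 and 0 at 10 mg/kg. These 3 receptors are low, with 39 to 51 counts each over the series, and a difference of a few reads moves each value.

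Olfr1271 and Olfr142 are 94.0% identical in coding sequence, with 55 of 915 bases different, and Olfr32 and Olfr142 are 80.1% identical. The family is shown by the 90 bases from base 530 to base 619 of the closest pair, with the 11 differing bases in capitals (GENCODE M21, mm10).
Olfr1271: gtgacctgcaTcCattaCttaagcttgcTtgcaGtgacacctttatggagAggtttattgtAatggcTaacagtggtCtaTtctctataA
Olfr142: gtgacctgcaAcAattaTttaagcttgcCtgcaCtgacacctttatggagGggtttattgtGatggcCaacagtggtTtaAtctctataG
Summed over the 4 genes, the counts of the family came to 1.69, 2.06, 1.92 and 1.96 CPM in the controls of set 1 and to 1.64, 1.95 and 2.33 CPM at 3 mg/kg. They came to 0.390, 1.0 and 0.490 CPM in the controls of set 2 and to 0.537, 1.09 and 1.25 CPM at 10 mg/kg. Neither dose group stood apart from its controls. Olfr142 had 37 counts in set 1 and 7 in set 2, and Olfr1270 had 33 and 6, so both reached the threshold of 30 through set 1, and part of the lower sum in set 2 follows from the choice of members.

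Class I receptors, the older of the mammalian receptor classes, lie together on chromosome 7 in the mouse. That cluster holds 126 of the 1110 receptor rows (11.4%) and 5 of the 25 members (20.0%): Olfr558, Olfr691, Olfr690, Olfr78 and Olfr597. Olfr558 and Olfr78 are also known from tissues outside the nose, among them blood vessels, and respond to short-chain fatty acids. Olfr558 (102702331 to 102712054, plus strand) had 0.614, 0.853, 0.709 and 0.655 CPM in the controls of set 1, 0.886, 0.488 and 0.412 CPM at 3 mg/kg, 0.455, 0.222 and 0 CPM in the controls of set 2, and 0.391, 0.346 and 0.117 CPM at 10 mg/kg. Olfr691 had 1.27, 0.367, 0.293 and 0.450 FPKM in the controls of set 1, 0.633, 0.432 and 0.567 at 3 mg/kg, 0.268, 0.0382 and 0.695 in the controls of set 2, and 0.403, 0.357 and 0.242 at 10 mg/kg. Olfr690, its neighbour on the same strand, had 0.506, 0.669, 0.601 and 0.616 FPKM in the controls of set 1, 0.578, 0.460 and 0.388 at 3 mg/kg, 0.184, 0.0698 and 0.519 in the controls of set 2, and 0.138, 0.186 and 0.147 at 10 mg/kg. Olfr690 was low in 5 of the 6 libraries of set 2, and control replicate 3 of set 2 was the exception. The 5 class I members summed to 1.58 to 2.92 CPM in set 1 and to 0.482 to 1.23 CPM in set 2. Olfr78 had 1 to 7 counts in each library of set 1 and 0 to 2 in each of set 2. With 32 counts in set 1 and 4 in set 2, Olfr78 too reached the threshold through set 1, so its difference between the sets is no result.

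The other members among the 12 with the highest mean FPKM were Olfr267, Olfr1344 and Olfr239. Olfr267 (chromosome 4, 58784779 to 58785720) had 0.570, 0.981, 0.527 and 0.309 FPKM in the controls of set 1, 0.0724, 0.666 and 0.583 at 3 mg/kg, 0.621, 0.275 and 0.715 in the controls of set 2, and 0.726, 0.367 and 0.0416 at 10 mg/kg. Olfr239 (chromosome 17, 33199062 to 33200009) had 0.486, 0.675, 0.674 and 0.230 FPKM in the controls of set 1, 0.216, 0.441 and 0.724 at 3 mg/kg, 0.274, 0.274 and 0.452 in the controls of set 2, and 0.0515, 0.0521 and 0.206 at 10 mg/kg. Olfr239 was lower in all 3 libraries at 10 mg/kg than in all 3 controls, on 1, 1 and 5 counts against 4, 7 and 7. Olfr1344 (chromosome 7, 6439836 to 6440896) had 0.362, 0.134, 0.201 and 0.617 FPKM in the controls of set 1, 0.450, 0.460 and 0.194 at 3 mg/kg, 0.551, 0.175 and 0.461 in the controls of set 2, and 0.414, 0.466 and 0.369 at 10 mg/kg. All of the 50-base windows of its coding sequence also occur in the overlapping gene Gm20715 on the same strand, so its counts are uncertain.

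**Figure D1:**
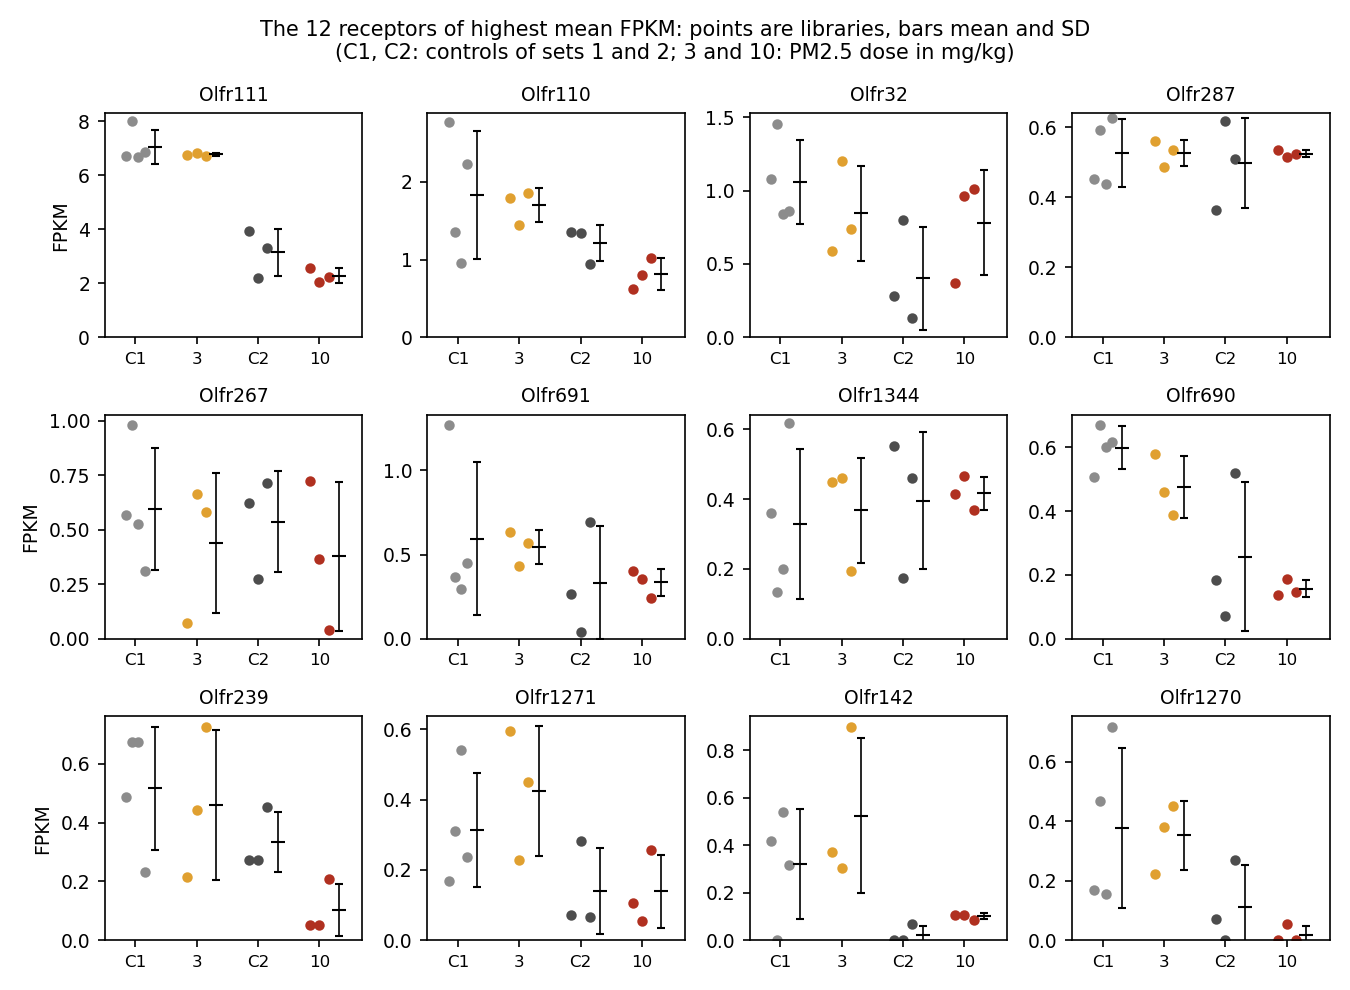
FPKM of the 12 receptors with the highest mean FPKM, one panel each with its own axis from 0; points are libraries in the 4 groups and bars are means and SD, cut off at 0. Olfr111 falls into a level of 6.68 to 7.99 in set 1 and 2.04 to 3.93 in set 2, while Olfr287 has a like level in both.

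By mean FPKM the order was Olfr111 (4.81), Olfr110 (1.39), Olfr32 (0.772), Olfr287 (0.518), Olfr267 (0.488), Olfr691 (0.452), Olfr1344 (0.377), Olfr690 (0.372), Olfr239 (0.353), Olfr1271 (0.254), Olfr142 (0.241) and Olfr1270 (0.215). Olfr111 lay above Olfr110 in every library. From Olfr32 downward, neighbours in the order differed by less than the spread over libraries. Of the 25 members, 11 had a count in all 13 libraries and 13 had a summed count under 50. The members fell into 13 of the 54 genomic clusters of receptor genes, with 7 on chromosome 7, 5 on chromosome 17 and 4 on chromosome 2. They were thus not drawn from one neighbourhood.

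Gene models bear on these levels. The length that the deposited values imply was at most 1200 bases for 14 members, about that of the coding exon, and for 20 of 25 it was shorter than the union of exons in GENCODE M21. Reads in exons outside the deposited model would not have been counted. For Olfr287 the implied length was instead the longer, with 7320 bases against a union of 2706, although its coordinates were identical to those of GENCODE. For Olfr597 it was 1908 bases, longer than the deposited locus itself (103320401 to 103321360). An implied length is thus not always that of a transcript. The implied length of Olfr110 was 1106 bases against 1751. The order by FPKM, with Olfr287 below Olfr110, thus depends on the implied lengths. A total of 6 members overlap an annotated gene without a receptor symbol. Olfr287 and Olfr288 overlap Gm44579, and Olfr1344 overlaps Gm20715. Both of these genes hold coding sequence of the receptors they overlap, so they are not shown to be other than receptor genes. Olfr1270 overlaps Gm4222, Olfr558 overlaps Gm45688, and Olfr56 overlaps Ifi47, Tgtp1 and Tgtp2, which are interferon-induced GTPase genes. Exons of Olfr56 overlap those of Ifi47, on the same strand, but not those of Tgtp1 or Tgtp2, on the opposite strand. Olfr56 had 5, 2 and 0 counts in the controls of set 2 and 9, 10 and 1 at 10 mg/kg. Beside it, Ifi47 had 37, 33 and 26 counts in those controls and 42, 110 and 118 at 10 mg/kg (log2 fold change 1.24, SE 0.58, edgeR adjusted p = 0.528), and the share of its reads in the counts of Olfr56 was not tested.

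RefSeq promoter windows (250 bases before to 50 bases after the start, GRCm38.p6) were found for 18 members. For 13 of them the RefSeq start lay more than 200 bases from the GENCODE start, so the window may not be the promoter in use. The homeodomain core TAATTA was searched on both strands in the 250 upstream bases. It was in 0 of 18 members, in 18.1% of 944 receptor promoters and in 4.84% of 32851 promoters in all. The search says only that these letters are not in these windows.

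Summed over the 25 members, the share of receptor RNA in exposed mice overlapped that in the controls of their set at both doses. The share was 21.3, 22.6, 17.9 and 21.97 CPM in the controls of set 1 (mean 20.9 ± 2.11, SD, n = 4) and 19.5, 19.7 and 20.3 CPM at 3 mg/kg (19.8 ± 0.393, SD, n = 3). All 3 exposed libraries lay within the range of the controls, and the ratio of the means was 0.946. In set 2 the share was 13.6, 11.6 and 12.7 CPM in controls (12.7 ± 1.01, SD, n = 3) and 11.1, 12.3 and 11.3 CPM at 10 mg/kg (11.6 ± 0.634, SD, n = 3). These groups overlapped, with a ratio of 0.914. Counting error alone gave each library an exact 95% interval such as 18.9 to 23.99 CPM for control replicate 1 of set 1 and 9.74 to 12.7 CPM for replicate 1 at 10 mg/kg. A sum over chosen members is given without a test.

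The small difference at 10 mg/kg depended on which members were summed. Without Olfr111 the log2 ratio of the shares went from -0.13 to -0.03, and without Olfr110 and Olfr111, a choice made after seeing the data, it was 0.04. Without the 6 members that overlap other genes it was -0.27, and with FPKM summed in place of counts -0.22. At 3 mg/kg the log2 ratio was -0.08, and -0.09 without Olfr111.

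**Figure D2:**
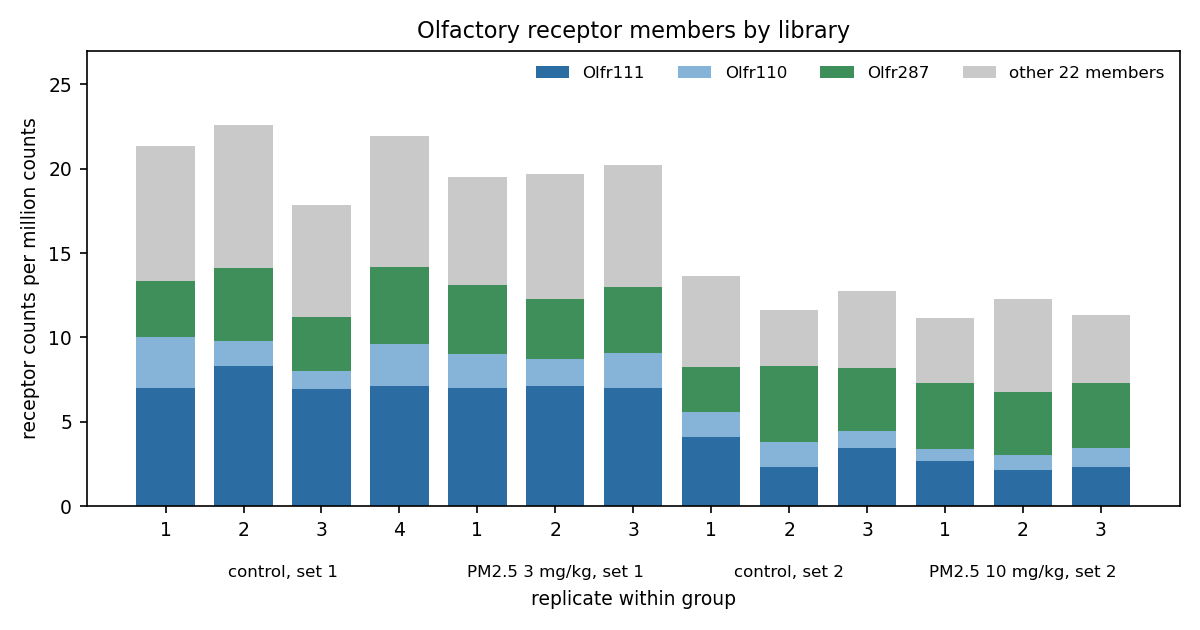
Summed level of the 25 receptors in CPM in each of the 13 libraries (bars), divided into Olfr111, Olfr110, Olfr287 and the other 22 members. The 7 libraries of set 1 stand at 17.9 to 22.6 CPM and the 6 of set 2 at 11.1 to 13.6 CPM, with the green part for Olfr287 alike in both.

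No receptor passed the test at either dose. Tests used edgeR's quasi-likelihood F test over 17467 genes with Benjamini-Hochberg adjustment. The filter on low counts kept Olfr111, Olfr287, Olfr110, Olfr32 and Olfr558, and 20 members had too few counts. At 3 mg/kg 0 of 5 passed, and 0% of all genes tested did (2.46% of genes and 0 of the 5 receptors had an unadjusted p under 0.05). The log2 fold changes were -0.05 (SE 0.18) for Olfr111, -0.09 (SE 0.34) for Olfr110, 0.01 (SE 0.21) for Olfr287, -0.32 (SE 0.51) for Olfr32 and -0.24 (SE 0.56) for Olfr558, all with an edgeR adjusted p of 1. No group of libraries stood apart from its controls for any of them, as 3.22% of all genes did in the lower and 3.24% in the higher direction.

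At 10 mg/kg 0 of 5 receptors passed, against 0.641% of all genes tested (0.521% higher and 0.120% lower). At an unadjusted p under 0.05 it was also 0 of 5, against 9.65% of genes. Olfr111 had a log2 fold change of -0.45 (SE 0.21, edgeR adjusted p = 0.518) and Olfr110 one of -0.57 (SE 0.37, adjusted p = 0.723). Olfr32 had 0.80 (SE 0.55, adjusted p = 0.744), Olfr558 0.30 (SE 0.71, adjusted p = 0.964) and Olfr287 0.05 (SE 0.22, adjusted p = 0.982). As separate rows, 0 of 5 receptors had groups that did not overlap, against 4.27% of genes in the lower and 6.30% in the higher direction. The summed counts of Olfr110 and Olfr111 were 5.59, 3.78 and 4.47 CPM in controls and 3.37, 3.02 and 3.44 CPM at 10 mg/kg, so that all exposed libraries lay below all controls. Fitted as 1 row, chosen after seeing the data, the pair had a log2 fold change of -0.48 (edgeR adjusted p = 0.320), which did not pass. At 3 mg/kg the pair had -0.06 (adjusted p = 1).

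The responses to the doses were compared in the same fit. The difference in log2 fold change, 10 mg/kg less 3 mg/kg, was -0.39 (SE 0.28) for Olfr111, -0.47 (SE 0.50) for Olfr110, 0.05 (SE 0.31) for Olfr287, 1.12 (SE 0.75) for Olfr32 and 0.54 (SE 0.90) for Olfr558. None of the 5 passed, against 0.00573% of all genes, none had an unadjusted p under 0.05, against 5.99%, and the lowest edgeR adjusted p among them was 0.977.

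The larger differences lay between the control groups of the sets. Olfr111 was lower in the controls of set 2 than in those of set 1 by a log2 fold change of -1.13 (SE 0.19, edgeR adjusted p = 0.00233). It was the only 1 of the 5 receptors to pass, against 8.74% of all genes lower, 10.5% higher and 19.3% in either direction. Olfr32 had -1.18 (SE 0.53, adjusted p = 0.127), and without control replicate 2 of set 2 it had -2.28 (adjusted p = 0.0389). Olfr558 had -1.58 (SE 0.62, adjusted p = 0.0850), and -2.32 without control replicate 1 of set 2 (adjusted p = 0.0367). It passed the filter on low counts only through libraries of set 1, so its difference between the sets follows in part from the filter and both values are given as a description. Olfr110 (-0.52, SE 0.34, adjusted p = 0.287) and Olfr287 (-0.01, SE 0.21, adjusted p = 0.975) overlapped, and as 1 row Olfr110 and Olfr111 had -0.98 (adjusted p = 0.00187). The summed share of the 25 members was 12.7 CPM against 20.9 CPM, a ratio of 0.605, with each control of set 2 below each of set 1. Without Olfr111 the log2 ratio of these shares was -0.53, against -0.73 with it. Over all receptor rows, which no count threshold chose, it was -0.66.

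**Figure D3:**
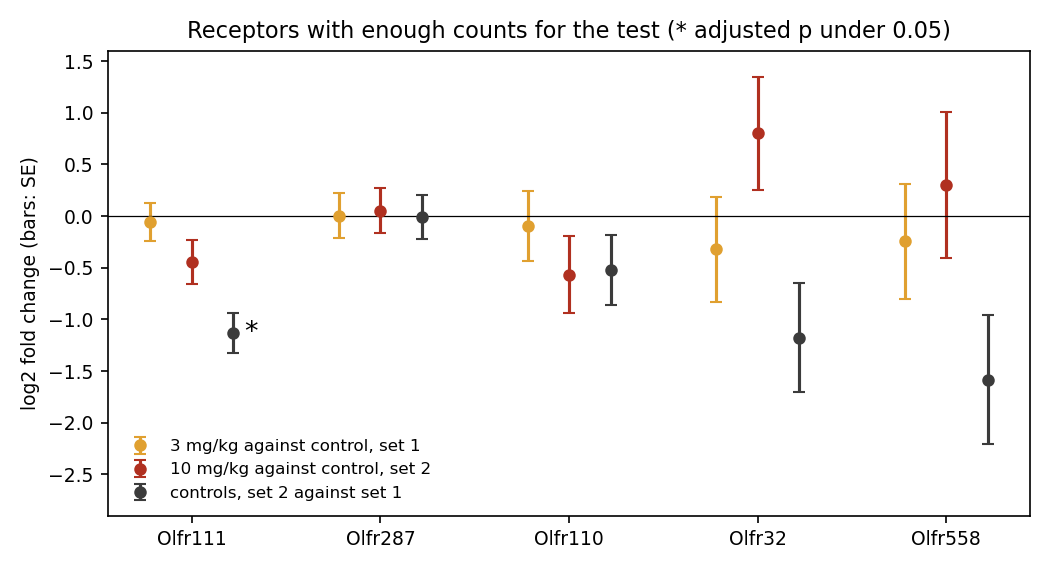
Log2 fold change with its SE for the 5 receptors with enough counts for the test, for 3 mg/kg and 10 mg/kg against their own controls and for the controls of set 2 against those of set 1. Only Olfr111 between the sets, at -1.13, has an adjusted p under 0.05.

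A fit that kept every row with a summed count of at least 30 (19530 genes) gave a value for all 25 members. At 3 mg/kg 0 members passed (0% of all genes), with a median log2 fold change of -0.09 against 0.00 over all genes. Olfr316 had the lowest p there (-3.0, SE 1.20, edgeR adjusted p = 1), on 3, 3, 7 and 0 counts in controls and 1, 0 and 0 at 3 mg/kg. Olfr129 alone had exposed libraries all below its controls (1 of 25 members, against 3.33% of genes lower and 3.15% higher), with 2, 2 and 3 counts against 5, 3, 3 and 3. At 10 mg/kg 0 members passed (0.584% of genes) and the median was 0.03 against -0.01. Olfr239 (-1.53, SE 0.71, adjusted p = 0.522) and Olfr288 (-1.23, SE 0.75, adjusted p = 0.708) lay below all controls, and Olfr142 (2.0, SE 1.36, adjusted p = 0.754) above them, each on 7 counts or fewer a library. That is 2 of 25 members lower and 1 higher without overlap, against 4.31% and 6.36% of all genes. Between the controls of the sets, where 7.55% of genes were called lower and 17.2% in either direction, Olfr142 passed beside Olfr111 (-3.55, SE 1.16, adjusted p = 0.0476). Olfr142 had 1 count in all 3 controls of set 2 together and reached 30 counts only through set 1, so its difference follows in part from the choice of members and is no result.

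Not every member was lower in set 2. Over all libraries of a set, the mean CPM was higher in set 2 for Olfr1344, Olfr316, Olfr727 and Olfr1507, the last known as MOR28, on 87 counts or fewer each. A member that reached 30 counts mainly through one set had to differ between them, so the directions over the members are not counted as support.

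Genes that act with the receptors were read from the same fit. Olfactory transduction genes (14, among them the G protein Gnal, the cyclase Adcy3 and the channel subunit Cnga2) had 0 higher and 0 lower at either dose, where 0% of all genes passed at 3 mg/kg and 0.641% at 10 mg/kg. Between the sets, where 19.3% of all genes passed, 3 of the 14 did: Gnb1 was higher (log2 fold change 0.31, edgeR adjusted p = 0.0136) and Pde1c (-0.69, adjusted p = 0.00838) and Slc24a4 (-0.77, adjusted p = 0.0229) were lower. Of 15 genes of receptor trafficking and choice, 0 passed at either dose; between the sets 3 did, near that background, of which Reep1 was higher (0.39, adjusted p = 0.00405) and the transcription factors Ebf1 (-0.71, adjusted p = 0.0150) and Ebf3 (-0.80, adjusted p = 0.0443) were lower. Of 14 genes of axon identity and guidance, 0 passed at either dose, and between the sets 2 did, Kirrel3 (-0.29, adjusted p = 0.0223) and Efna5 (-0.33, adjusted p = 0.0287), both lower. None of these shares is read as a change of its list. Interneurons of the bulb also express several of these genes.

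Markers of the sensory axons were read beside the receptors. None of 9 markers of mature sensory neurons passed at either dose or between the sets. Their summed level was 239 to 339 CPM in the controls of set 1, 204 to 278 CPM at 3 mg/kg, 194 to 328 CPM in the controls of set 2 and 189 to 334 CPM at 10 mg/kg. Omp, the olfactory marker protein of mature sensory neurons, had 112 to 160 CPM in the controls of set 1 and 70.6 to 145 CPM in those of set 2 (log2 fold change -0.17, SE 0.27, adjusted p = 0.690). Its groups overlapped. The markers of lowest p between the sets were Stoml3 (-0.48, edgeR adjusted p = 0.121), Cnga2 (-0.97, adjusted p = 0.121) and Gng13 (0.39, adjusted p = 0.169). They went in both directions and their groups overlapped too. How these markers relate to the receptor share was not tested. Ensheathing glia, which wrap the sensory axons in the bulb, had 2 of 7 markers lower between the sets: Mybpc1 (-0.86, adjusted p = 0.00458) and Prss56 (-0.74, adjusted p = 0.0204), where 8.74% of all genes were lower. Their summed level was 1127 to 1318 CPM in the controls of set 1 and 768 to 1213 CPM in those of set 2, and their part in the receptor difference was not tested. Reads of vomeronasal receptor genes (330 rows, 51 with a count) came to 18.7 to 26.0 CPM in set 1 and 10.0 to 14.7 CPM in set 2. A single row held 1202 of their 3668 counts. The share of all genes that separate the sets in this way is not given here, so the difference is a description.

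Receptor rows below the threshold were counted as a group. These 603 rows had a median of 3 counts over the series and together held the rest of the 6032 receptor counts, of which the members made up 58.2%. They came to 6.40 to 21.3 CPM per library, and the number of receptor rows with a count ran from 94 to 206. At the depth of the smallest library the number expected was 206, 108, 108 and 141 in the controls of set 1 and 163, 111 and 114 at 3 mg/kg. In set 2 it was 131, 95.1 and 82.4 in controls and 75.6, 138 and 120 at 10 mg/kg. Control replicate 1 of set 1 was the highest, and the groups of each comparison overlapped.

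That library also had the highest Cyp2g1 and Cyp2a5, enzymes of supporting cells and glands of the epithelium, a pair singled out after their values were seen. They summed to 35.1, 1.71, 0.851 and 1.02 CPM in the controls of set 1 and to 7.02, 0.0698 and 1.17 CPM at 3 mg/kg. In set 2 they summed to 0, 0.963 and 6.85 CPM in controls and to 0.147, 4.50 and 3.76 CPM at 10 mg/kg. The 9 markers of supporting cells and glands together came to 22.8 to 73.0 CPM in the controls of set 1, 17.6 to 35.0 CPM at 3 mg/kg, 27.2 to 33.2 CPM in the controls of set 2 and 27.9 to 66.3 CPM at 10 mg/kg. The other 7 of these markers were highest not in control replicate 1 of set 1 (37.9 CPM) but in replicate 3 at 10 mg/kg (62.6 CPM), and without Ermn, which oligodendrocytes of the bulb also express, they had 14.3 and 27.8 CPM there. Obp1a was at 0 in 11 libraries, and the basal cell marker Krt5 in 12. Trpc2, the channel of vomeronasal neurons, had 76 counts in control replicate 1 of set 2 and none in the other 12 libraries.

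The summed share of the 25 members did not stand out in that library. Control replicate 1 of set 1 had 21.3 CPM of the members, within the 17.9 to 22.6 CPM of the other controls of its set. Without it, the log2 ratio of the summed share was -0.07 at 3 mg/kg, against -0.08 with it, and -0.72 between the controls of the sets, against -0.73. Olfr111 was still lower in set 2 without it (-1.16, adjusted p = 0.00773). Olfr110 turned from -0.09 to 0.17 at 3 mg/kg when it was left out, and did not pass either way.

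**Figure D4:**
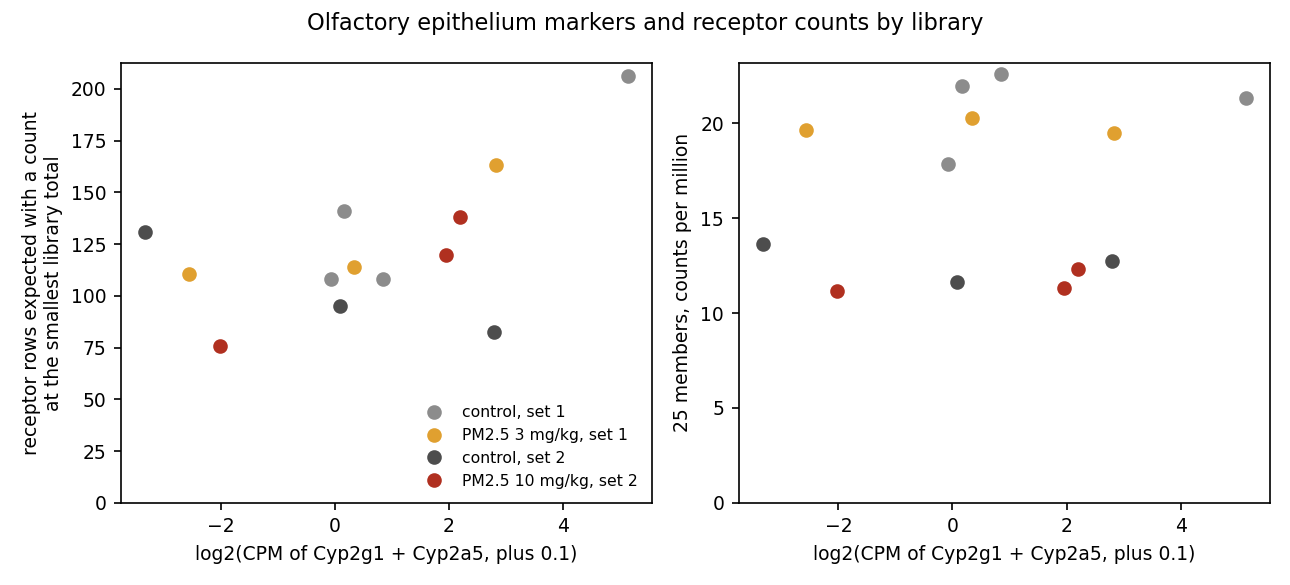
Each point is a library; the x axis is log2 of the summed CPM of Cyp2g1 and Cyp2a5 plus 0.1, and the y axis is the number of receptor rows expected with a count at the smallest library total (left) or the summed CPM of the 25 members (right). The library at the far right, with 206 rows, is control replicate 1 of set 1, whose members sum to 21.3 CPM.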

How the data were processed

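RNA of mouse olfactory bulb was sequenced in 13 libraries, prepared with a stranded total RNA kit per the labels' protocols. The authors deposited a raw count and an FPKM value per gene and library. HISAT2 and mm10 are named in the submitters' processing notes; no source used here gives the counting program, its annotation or its use of strand. The deposited FPKM equals the count divided by a fixed length and by the library total (largest relative deviation 9.8e-07), and CPM was computed from the counts in the same way without the length. No pair of replicates agreed within sampling noise.

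Tests used edgeR 4.0.16 in R 4.3.3 (TMM, filterByExpr, robust quasi-likelihood F test), with the 4 groups fitted together and 9 residual degrees of freedom, tested on simulated data. P-values were adjusted by Benjamini-Hochberg over all genes tested and called at 0.05. Confidence intervals and the limit for a count of 0 (3 counts) cover counting error only. Coding sequences came from GENCODE M21 and upstream sequences from RefSeq.

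The named members are the 12 of highest mean FPKM, the 3 nearest the threshold on each side, the 3 of highest count in the class I cluster and outside it, the 3 of highest FPKM that overlap another gene, and those with the lowest p. Members named beyond these, such as Olfr56, Olfr78, Olfr288, Olfr316 and those of one family, and the markers Cyp2g1, Cyp2a5, Ifi47, Xist and Kdm5d, were chosen after their values were seen. The members, gene lists and rules were chosen with earlier results of these data known. Alternatives were other normalization factors, filters and tests (DESeq2 1.42.0, limma 3.58.1 on log2 of FPKM plus 0.1), a replicate block, each library left out in turn, and other sums.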

Additional observations from a re-analysis of the deposited data

Results flagged for a closer look

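The controls of set 1 were the only group with enough libraries to be checked for a library far from the rest, as the gap to the nearest library divided by the range of the group. Of 33 values checked, 7 passed Dixon's 95% critical value. Its chance rate of about 1 in 20 is for continuous values, and low counts with ties depart from it. Cyp2g1 and Cyp2a5 were among the values checked and had been singled out after they were seen. The number that passed is therefore not read as an excess. Olfr129 (gap 0.969 of the range, 5 counts against 3, 3 and 3), Olfr691 (0.838, 16 counts against 5, 4 and 6), Cyp2g1 (0.962, 11.5 CPM) and Cyp2a5 (0.951, 23.6 CPM) were highest in replicate 1, where the summed Cyp2g1 and Cyp2a5 were also highest among the 13 libraries. Olfr111 (0.871, 8.32 CPM) and Olfr1340 (0.834, 8 counts against 2, 1 and 2) were highest in replicate 2, and Olfr309 (0.838, 7 counts against 1, 1 and 2) in replicate 4. Apart from Olfr111 the receptors concerned rest on few counts. Olfr111 is compared with set 2 at -1.06 without replicate 2 (adjusted p = 0.0101), against -1.13 with it.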

How the results depend on the processing

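No alternative made a receptor pass at either dose, and Olfr111 passed between the controls of the sets in every alternative run, with an edgeR adjusted p of 0.00135 to 0.0103 when any 1 library was left out. The number of receptors that passed between the sets was 1, rising to 2 with the filter on a summed count of at least 30, to 3 with limma on log2 FPKM (Olfr32, adjusted p = 0.0418, and Olfr558, adjusted p = 0.0348, which passed the filter on low counts only through set 1, were added) and running from 1 to 2 with 1 library left out. The log2 ratio of the summed share between the sets was -0.53 without Olfr111, -0.95 without overlapping members, -0.91 with FPKM summed and -0.52 without Olfr110 and Olfr111, a choice made after seeing the data. At 10 mg/kg the first of these was -0.029, the second -0.27, the third -0.22 and the last 0.044. Leaving out 1 library gave -0.15 to -0.04 at 3 mg/kg, -0.19 to -0.07 at 10 mg/kg and -0.79 to -0.67 between the sets. Values near 0 changed sign with 1 library left out: at 3 mg/kg Olfr111 ran from -0.080 to 0.014, Olfr287 from -0.075 to 0.094 and Olfr110 from -0.31 to 0.17; at 10 mg/kg Olfr287 ran from -0.11 to 0.25 and Olfr558 from -0.21 to 1.03; between the sets Olfr287 ran from -0.22 to 0.14, and it was 0.0016 with DESeq2. The cause of these changes was not tested. Replicate numbers did not pair the libraries, with correlations of same-numbered deviations from -0.41 to 0.14. Libraries of different number in set 2 also shared deviations. Control replicate 2 had a correlation of 0.52 with replicate 3 at 10 mg/kg and of -0.43 with replicate 1. What these libraries share was not tested. A replicate block gave 0 receptors at each dose, turned Olfr110 at 3 mg/kg to 0.10 and left 5 genes called at 10 mg/kg, against 112. DESeq2 called 291 genes there, limma 80 and a fit of that set alone 4; at 3 mg/kg, where edgeR called 0, DESeq2 called 19 genes and a fit of that set alone 9. None was a receptor. For 20 of the 25 members depth limits the test: they had too few counts for the filter.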
